A study of Mus musculus with 12 samples.

Results

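Astrocytes are the star-shaped glia of the brain, and the genes described here are 10 whose transcripts are widely used to mark them: Gfap, Aqp4, Aldh1l1, S100b, Slc1a2, Slc1a3, Gja1, Sox9, Aldoc and Glul. They were chosen by name as known markers, with earlier results of these data known, out of 56748 genes in the count table, and all 10 were among the 17995 genes that passed the filter on low counts. The libraries came from mouse brain, described by the series as forebrain of adult animals, in 4 groups of 3 libraries. Knockout mice exposed before birth to valproic acid carried the genotype labelled htr3a Notch KO, and wildtype mice exposed to valproic acid were set beside them. The other two groups were knockout mice and wildtype mice with no exposure. Valproic acid is an antiepileptic drug that inhibits histone deacetylases, and its use in pregnancy is a rodent model of autism. The series calls the knockout conditional. The sources used here name neither the Notch gene that is removed nor the driver or target cells of the deletion, and they give no dose, day of exposure or exact age. Nothing in the labels says that the libraries of a group are from different animals, so every p-value below measures only the spread between these libraries.

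Astrocytes clear glutamate from synapses, turn it into glutamine, buffer potassium and water around neurons, and supply metabolites. They share small molecules through gap junctions, and raise their filament proteins when they become reactive. In the developing brain Notch receptors steer precursor cells toward the astrocyte fate, acting in the nucleus through the DNA-binding protein RBPJ. These are bulk libraries, in which fewer astrocytes and less RNA per astrocyte cannot be told apart.

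Total counts ran from 16887885 to 24944681 per library. Mitochondrially encoded transcripts took 12.2% to 18.6% of them, and the highest shares were in exposed knockout replicate 1 (18.6%) and exposed wildtype replicate 3 (16.4%). Xist, the RNA of the inactive X chromosome, had 6 counts in exposed knockout replicate 3 and 12 in exposed wildtype replicate 3, against 5919 to 10767 in the others, so both libraries lacking it were exposed. Notch1, Notch2, Notch3, Notch4 and Rbpj had log2 differences of -0.29 to 0.17 between unexposed knockout and wildtype (edgeR adjusted p = 0.9996 each). Between exposed knockout and exposed wildtype these were -0.09 to 0.18 (edgeR adjusted p = 0.749 to 0.998), and none passed the test in either. As the target cells of the conditional deletion are not named, these bulk totals cannot tell whether it took place. Of 12 markers of hindbrain and cerebellum, 4 passed the count filter, and Hoxb3 and Hoxb5 had no count in any library.

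A few of the upstream windows are shown because they differ in the motifs that bear on the design: the core bound by RBPJ, and the palindrome of STAT factors, which act on astrocyte genes during development. Each is the 250 bases before the annotated start of the gene, read along the gene's own strand, from RefSeq on GRCm38.p6. The window of Gfap lies at chr11:102897201-102897450 on the minus strand, that of Aldh1l1 at chr6:90550543-90550792 on the plus strand, and that of Slc1a3 at chr15:8710808-8711057 on the minus strand. Capitals mark a motif match in either direction.
Gfap: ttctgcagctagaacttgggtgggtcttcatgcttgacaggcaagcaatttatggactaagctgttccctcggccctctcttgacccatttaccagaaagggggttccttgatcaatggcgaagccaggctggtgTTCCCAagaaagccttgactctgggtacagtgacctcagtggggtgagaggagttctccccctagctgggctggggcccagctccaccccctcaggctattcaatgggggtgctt
Aldh1l1: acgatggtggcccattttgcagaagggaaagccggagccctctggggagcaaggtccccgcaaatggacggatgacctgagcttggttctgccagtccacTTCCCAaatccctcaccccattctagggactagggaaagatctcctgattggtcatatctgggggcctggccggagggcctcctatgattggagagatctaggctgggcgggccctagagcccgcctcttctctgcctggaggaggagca
Slc1a3: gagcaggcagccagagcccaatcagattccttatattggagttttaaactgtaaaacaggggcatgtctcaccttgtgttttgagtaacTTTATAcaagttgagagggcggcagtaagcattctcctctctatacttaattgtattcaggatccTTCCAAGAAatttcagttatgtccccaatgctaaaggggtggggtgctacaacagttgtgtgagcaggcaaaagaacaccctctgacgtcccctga

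The capitals in Gfap and Aldh1l1 are the RBPJ core TGGGAA read on the other strand, beginning 115 and 150 bases before the start. Those in Slc1a3 are the TATA box TATAAA on the other strand, 161 bases before the start, and the STAT palindrome TTCNNNGAA, 96 bases before it. Of the 10 genes, 8 had windows in the RefSeq table, and 4 of these held the RBPJ core: Gfap, Aldh1l1, S100b and Aldoc. The same letters occur in 21.6% of 32536 windows of 250 bases over all genes. The STAT palindrome was in Slc1a3 and Aldoc, against 7.04% of windows, and the TATA box in Slc1a3, against 12.3%. The NFI palindrome was in none of the 8, and in 0.0369% of all windows. The motifs searched share no letters with each other in these windows, and a match describes letters only.

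The genes covered a wide span of levels. Per kilobase of exon, Glul averaged 528 ± 70.1 CPM (counts normalised to library size) over the 12 libraries and Aldoc 499 ± 40.1 (SD), and their ranges overlapped. Slc1a2 followed at 256 ± 29.3 CPM per kilobase and S100b at 159 ± 16.7, each without overlap with its neighbours in this order. Gfap at 91.9 ± 9.27 and Slc1a3 at 88.3 ± 6.87 CPM per kilobase overlapped. Gja1 at 25.0 ± 2.25, Aldh1l1 at 21.6 ± 1.81 and Aqp4 at 21.6 ± 1.80 CPM per kilobase also overlapped each other in order. Sox9, the only transcription factor among them, was lowest at 7.02 ± 0.692 CPM per kilobase, and its 461 to 871 counts per library were the fewest. The astrocyte label therefore stood on transcripts that were all detected in every library.

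None of the 10 genes passed the test in any comparison. With edgeR's quasi-likelihood test and Benjamini-Hochberg adjustment over the 17995 genes at 0.05, 0 of 10 passed for valproic acid in knockout, where 0.0556% of all genes passed, and 0 of 10 in wildtype, where 0.895% passed. Likewise 0 of 10 passed for knockout against wildtype after exposure, where 0.0389% of all genes passed as higher and 0.0111% as lower, and without exposure, where 0.0389% passed. The interaction, the difference between the valproic acid effects in knockout and in wildtype, passed for 0 of 10 genes (0.00% of all genes, with 1075 genes at an unadjusted p under 0.05 and 0 genes passing by DESeq2). The valproic acid effect averaged over both genotypes had the most calls over all genes, 5.99%, and again 0 of the 10. At an unadjusted p under 0.05 the counts were 2 of 10 for exposure in knockout (14.9% of all genes), 2 in wildtype (14.2%), 1 for knockout after exposure (7.44%), 1 for knockout without exposure (3.13%), 2 for the interaction (5.97%) and 4 for the averaged effect (21.8%). DESeq2 called 0 of 10 in each of the 6 comparisons. The 95% confidence intervals of the fold differences, which are not adjusted, lay between 0.848 and 1.33 for exposure in knockout and between 0.727 and 1.34 in wildtype. They lay between 0.833 and 1.36 for knockout after exposure and between 0.699 and 1.22 for knockout without exposure.

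**Figure D1:**
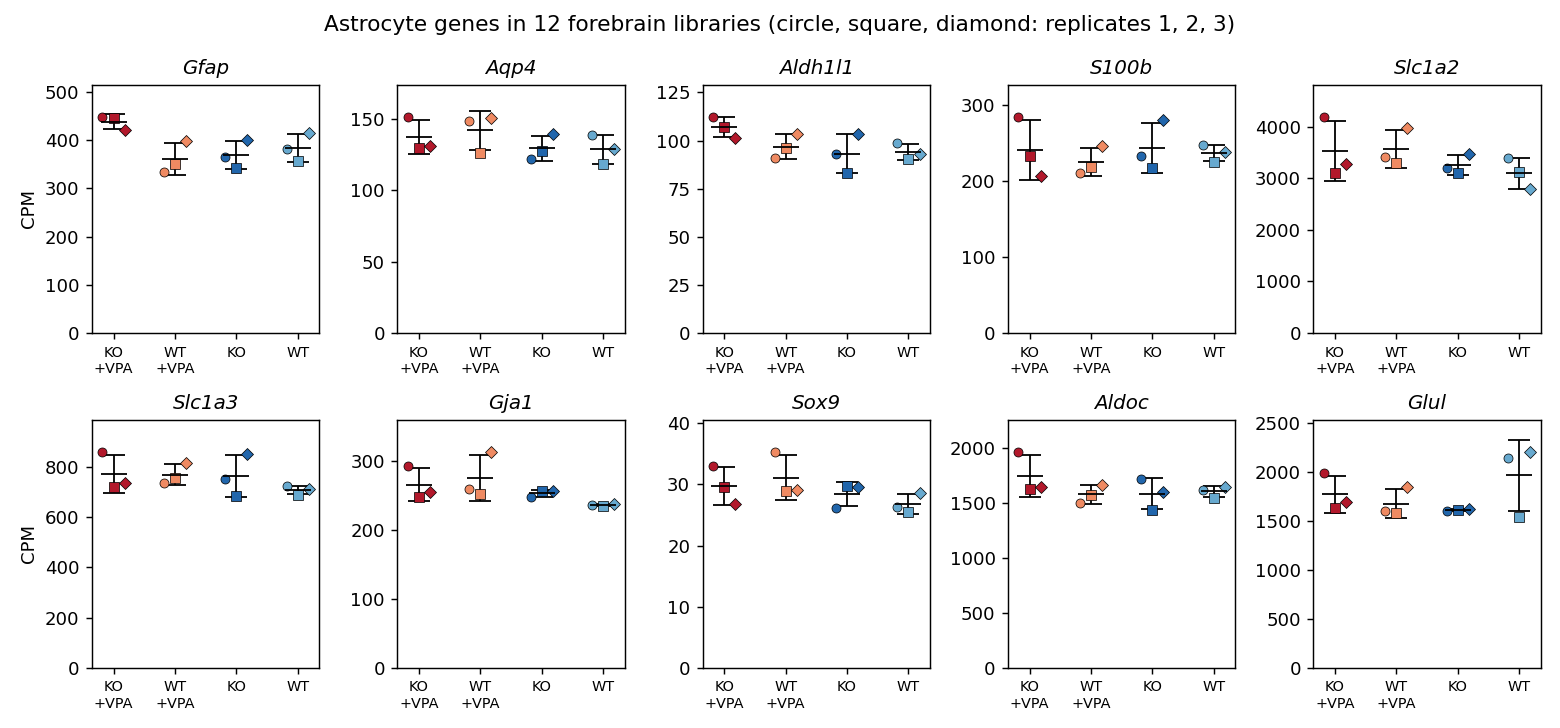
CPM of each of the 10 astrocyte genes in the 12 libraries, one panel per gene, with a point per library, a long bar at the group mean and whiskers of 1 SD (n = 3). Groups run from exposed knockout through exposed wildtype and unexposed knockout to unexposed wildtype, and the 3 exposed knockout points of Gfap (419.9 to 447 CPM) lie above all others.

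Gfap encodes the intermediate filament of astrocytes and is the usual mark of their reactive state (ENSMUSG00000020932, chromosome 11). It had 447, 446 and 419.9 CPM in exposed knockout and 334, 351 and 397 CPM in exposed wildtype. It had 364, 341 and 399 CPM in unexposed knockout and 382, 356 and 414 CPM in unexposed wildtype. The 3 exposed knockout libraries were above all 9 others, whose groups overlapped each other. After exposure the knockout mean was 438 ± 15.4 CPM and the wildtype mean 361 ± 32.7 CPM (SD, n = 3 each). The log2 difference was 0.28 ± 0.08 (SE), with an edgeR adjusted p of 0.41. Exposed and unexposed knockout differed by a log2 value of 0.25 ± 0.08 (edgeR adjusted p = 0.153), and exposed and unexposed wildtype by -0.09 ± 0.08 (edgeR adjusted p = 0.666). The interaction was 0.34 ± 0.11 (edgeR adjusted p = 0.833). Without exposure, knockout and wildtype differed by -0.06 ± 0.08.

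The Gfap difference was larger without exposed wildtype replicate 3, which lacked Xist. That library also had the highest Gfap of its group (397 CPM, against 334 and 351), so leaving it out raises the difference. Without it the log2 difference between exposed knockout and exposed wildtype was 0.35, with an edgeR adjusted p of 0.052. Over the other single libraries left out in that comparison the value was 0.23 to 0.31, with an edgeR adjusted p of 0.549 to 1. Without both libraries lacking Xist it was 0.38 (edgeR adjusted p = 0.0798), and with a term for them 0.28 (edgeR adjusted p = 0.464). The other library lacking Xist, exposed knockout replicate 3, had the lowest Gfap of its group (419.9 CPM). The part of sex in these values was not tested further.

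Aldh1l1, a folate enzyme, had its highest group mean in exposed knockout, as had Gfap, Slc1a3 and Aldoc (ENSMUSG00000030088, chromosome 6). It had 112, 107 and 101 CPM in exposed knockout and 90.8, 96.0 and 104 CPM in exposed wildtype. In unexposed knockout it had 92.9, 83.2 and 103 CPM, and in unexposed wildtype 98.7, 90.4 and 92.9 CPM. Each pair of groups compared here overlapped. Exposed and unexposed knockout differed by a log2 value of 0.20 ± 0.08 (edgeR adjusted p = 0.207), and exposed knockout and exposed wildtype by 0.14 ± 0.08 (edgeR adjusted p = 0.701). S100b encodes a calcium-binding protein also made by oligodendrocytes (ENSMUSG00000033208, chromosome 10). It had 284, 233 and 206 CPM in exposed knockout and 210.4, 218 and 246 CPM in exposed wildtype, with 233, 217 and 279.7 CPM in unexposed knockout and 247, 225 and 239 CPM in unexposed wildtype. Its log2 differences ran from -0.08 for exposure in wildtype to 0.10 for knockout after exposure, all inside overlapping groups. S100b overlaps Dip2a on the opposite strand, which had 990 to 1590 counts per library. No source used here states whether counting used the strand, so some S100b reads may be shared.

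The glutamate transporters Slc1a2 and Slc1a3 take up transmitter at synapses, and Glul turns the glutamate into glutamine. Slc1a2 (ENSMUSG00000005089, chromosome 2) had 4181, 3107 and 3284 CPM in exposed knockout and 3411, 3304 and 3982 CPM in exposed wildtype. It had 3206, 3102 and 3469.7 CPM in unexposed knockout and 3384, 3121 and 2785 CPM in unexposed wildtype. The exposed groups were the wider ones, each with 1 library well above the other two, and all compared groups overlapped. The log2 difference was 0.20 ± 0.10 for exposure in wildtype (edgeR adjusted p = 0.387) and 0.11 ± 0.10 in knockout (edgeR adjusted p = 0.658). Without exposed knockout replicate 1 the value in knockout was -0.03, and without exposed wildtype replicate 3 the value in wildtype was 0.12.

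Slc1a3 (ENSMUSG00000005360, chromosome 15) had 859.8, 719 and 736 CPM in exposed knockout and 737, 756 and 817 CPM in exposed wildtype. Unexposed knockout had 752, 686 and 851 CPM, and unexposed wildtype 725, 690.2 and 711 CPM. The 3 exposed wildtype libraries were above the 3 unexposed wildtype libraries, while the knockout groups overlapped. Exposure gave a log2 difference of 0.12 ± 0.08 in wildtype (edgeR adjusted p = 0.557) and 0.02 ± 0.08 in knockout (edgeR adjusted p = 0.958). Between unexposed knockout and unexposed wildtype the difference was 0.11 ± 0.08.

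Glul (ENSMUSG00000026473, chromosome 1) had 1988, 1627 and 1697 CPM in exposed knockout and 1605, 1576 and 1844 CPM in exposed wildtype. It had 1597, 1612 and 1619 CPM in unexposed knockout, the tightest of its groups, and 2144, 1541 and 2202 CPM in unexposed wildtype. Wildtype replicate 2 was thus the lowest of all 12 libraries, beside replicates 1 and 3, the highest of all. The mean was 1609 ± 11.2 CPM in unexposed knockout and 1962 ± 366 CPM in unexposed wildtype, a log2 difference of -0.29 ± 0.11 (edgeR adjusted p = 1). Without wildtype replicate 2 it was -0.43 (edgeR adjusted p = 0.369), and without replicate 1 or 3 it was -0.22 or -0.20. The interaction, which uses the same wildtype libraries, was 0.37 ± 0.16 (edgeR adjusted p = 0.833). The exposed knockout libraries were above the unexposed knockout libraries, by a log2 value of 0.14 ± 0.11 (edgeR adjusted p = 0.597), which was 0.041 without exposed knockout replicate 1.

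Gja1 encodes connexin 43, the main gap junction protein of astrocytes, and Aqp4 the water channel of their endfeet on blood vessels. Gja1 (ENSMUSG00000050953, chromosome 10) had 292, 248 and 254 CPM in exposed knockout and 258, 252 and 312 CPM in exposed wildtype. It had 247, 256 and 256 CPM in unexposed knockout and 236, 234 and 237 CPM in unexposed wildtype, where the spread was smallest. Unexposed wildtype was therefore below exposed wildtype and below unexposed knockout in every library. The log2 difference was 0.22 ± 0.08 for exposure in wildtype (edgeR adjusted p = 0.194) and 0.07 ± 0.08 in knockout (edgeR adjusted p = 0.747). Without exposed wildtype replicate 3 the value in wildtype was 0.12 (edgeR adjusted p = 0.565). Knockout and wildtype without exposure differed by 0.10 ± 0.08.

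Aqp4 (ENSMUSG00000024411, chromosome 18) had 151, 129.8 and 131 CPM in exposed knockout and 149, 126 and 151 CPM in exposed wildtype. Unexposed knockout had 122, 127 and 139 CPM and unexposed wildtype 139, 119 and 129 CPM, and all groups overlapped. Its log2 difference for exposure was 0.09 ± 0.08 in knockout (edgeR adjusted p = 0.664) and 0.14 ± 0.08 in wildtype (edgeR adjusted p = 0.463). Without exposed knockout replicate 1 the value in knockout was 0.0090, and without unexposed wildtype replicate 2 the value in wildtype was 0.084. Between the genotypes the Aqp4 difference was -0.05 after exposure and 0.0049 without.

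Sox9 encodes a transcription factor of glial precursors and adult astrocytes (ENSMUSG00000000567, chromosome 11). It had 33.0, 29.6 and 26.7 CPM in exposed knockout and 35.3, 29.0 and 29.1 CPM in exposed wildtype, with 26.2, 29.7 and 29.5 CPM in unexposed knockout and 26.2, 25.4 and 28.7 CPM in unexposed wildtype. All exposed wildtype libraries were above the unexposed ones, by a log2 value of 0.22 ± 0.10 (edgeR adjusted p = 0.289), and the knockout groups overlapped at 0.06 ± 0.10 (edgeR adjusted p = 0.809). Without exposed wildtype replicate 1, the highest library, the value in wildtype was 0.12. Aldoc encodes a glycolytic aldolase (ENSMUSG00000017390, chromosome 11). It had 1963, 1628 and 1641 CPM in exposed knockout and 1495, 1575 and 1667 CPM in exposed wildtype, with 1722, 1436 and 1597 CPM in unexposed knockout and 1618, 1546 and 1647 CPM in unexposed wildtype. Its groups overlapped throughout, with log2 differences of 0.14 for exposure in knockout, -0.02 in wildtype and 0.14 for knockout after exposure. Without exposed knockout replicate 1 the Aldoc values were 0.040 for exposure in knockout and 0.045 for knockout after exposure.

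**Figure D2:**
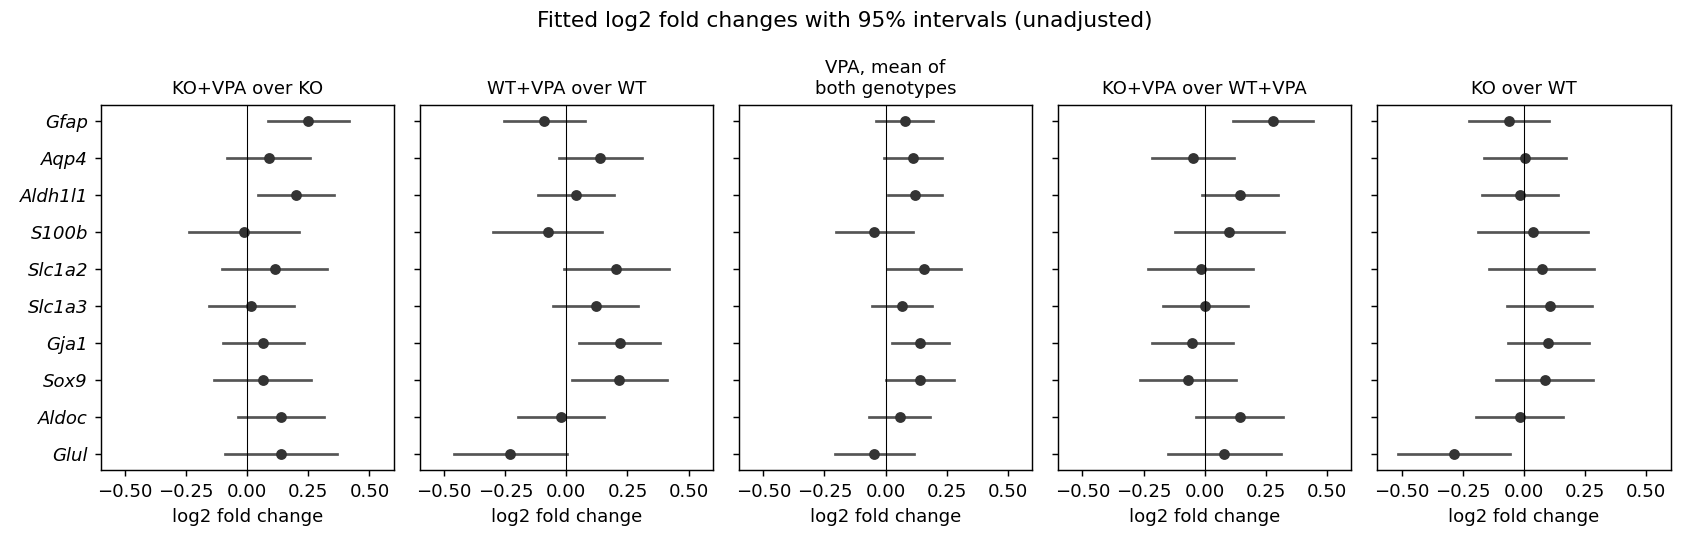
Fitted log2 differences of the 10 astrocyte genes in the 4 pairwise comparisons and in the exposure effect averaged over genotypes, one panel each, with points at the fitted value, unadjusted 95% confidence intervals from edgeR and a line at 0. None of these differences passed the test, and Gfap in exposed knockout against exposed wildtype is highest at 0.28.

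The median of the 10 genes was slightly above that of all genes after exposure, and in knockout this rested on exposed knockout replicate 1, as given below. For valproic acid in knockout, 9 of 10 differences were positive (51.8% of all genes) with a median of 0.10. In wildtype 6 of 10 were positive (51.5% of all genes) with a median of 0.08. The median over all genes was 0.01 in each. Averaged over genotypes, 8 of 10 were positive with a median of 0.10, against 52.4% of all genes and a median of 0.01. Between the genotypes 6 of 10 were positive both after exposure, with a median of 0.04, and without it, with a median of 0.02. Of all genes 51.2% and 49.7% were positive in these comparisons. Groups did not overlap, with the exposed or knockout one higher, for 2 of 10 genes for exposure in knockout (9.88% of all genes) and 3 of 10 in wildtype (9.84%). The same held for 1 of 10 genes for knockout after exposure (6.96%) and 1 of 10 without it (3.58%). No gene had a group wholly below the one it was compared with, against 10.3% of all genes for exposure in knockout, 10.9% in wildtype, 6.23% for knockout after exposure and 3.81% without it.

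Much of the variation ran between libraries of the same group. Exposed knockout replicate 1 was the highest library of its group for 10 of 10 genes, against 36.8% of all genes, and the highest of all 12 libraries for 7. Exposed wildtype replicate 3 was the highest of its group for 9 of 10, against 39.2% of all genes. Unexposed wildtype replicate 2 was the lowest of its group for 9, against 32.3% of all genes. The mean log2 level over the 10 genes, each centred on its own mean, was 0.22 in exposed knockout replicate 1 and 0.0017 and -0.02 in the other two. It was 0.12 in exposed wildtype replicate 3 and -0.03 and -0.06 in replicates 1 and 2. Those 2 libraries also had the highest mitochondrial shares, and the part of these shares in the result was not tested. With mitochondrial genes left out before scaling, the median was 0.09 for exposure in knockout and 0.08 in wildtype. Without exposed knockout replicate 1 the median for exposure in knockout was -0.0031, and for knockout after exposure it was -0.06. The median for exposure in wildtype was 0.035 without exposed wildtype replicate 3 and 0.049 without unexposed wildtype replicate 2. Between the unexposed genotypes it was -0.035 without knockout replicate 3 and -0.019 without wildtype replicate 2.

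**Figure D3:**
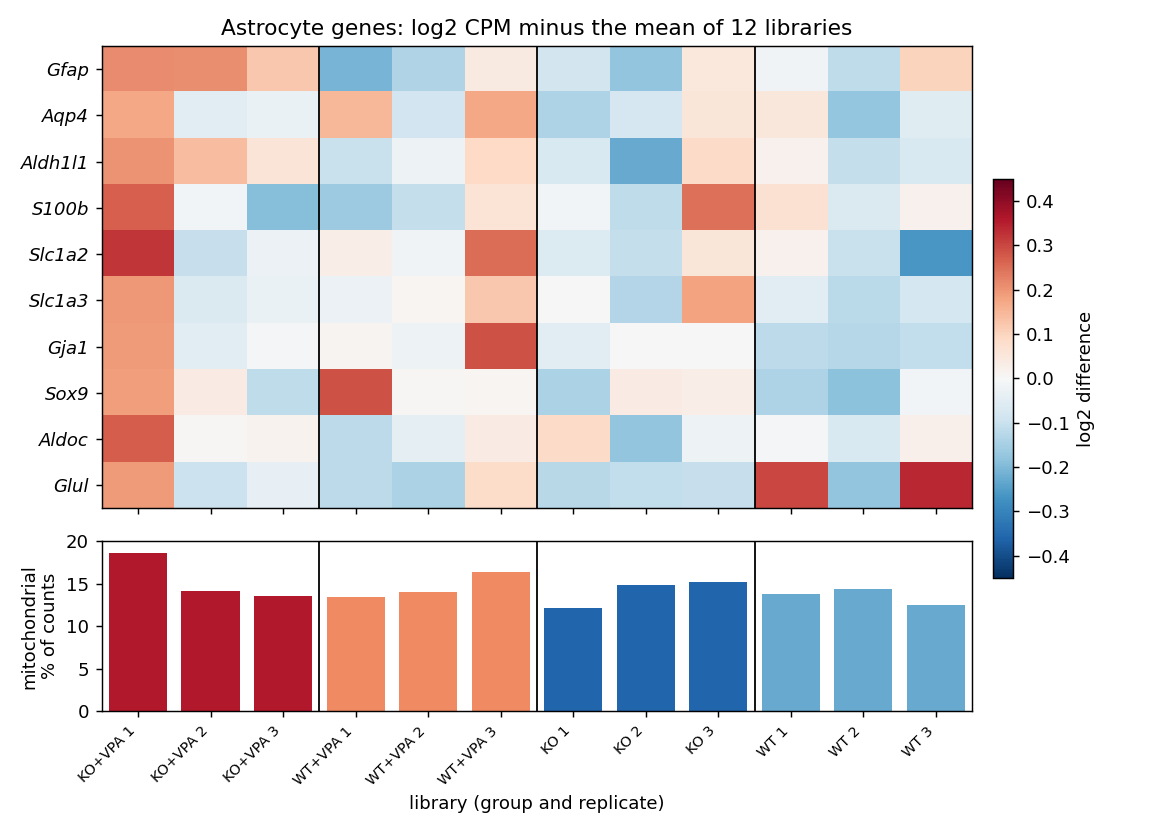
Log2 CPM of the 10 astrocyte genes in each of the 12 libraries, centred on each gene's mean, with blue below and red above that mean, over a bar chart of the mitochondrial percent of counts. The column of exposed knockout replicate 1 is above the mean for every gene, and that of unexposed wildtype replicate 2 is mostly below it.

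After removal of the group means, 44 of 45 pairs of the 10 genes had a positive Pearson r over the 12 libraries, with a median of 0.585 and a range of -0.04 to 0.92. These values share library, depth and scaling. The within-group SD of log2 CPM was 0.10 for Aldh1l1 and Gfap, the smallest, and 0.17 for Glul, with a median of 0.12. Over 9979 genes of at least 10 CPM the median was 0.11.

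Among 9969 other genes of at least 10 CPM, those whose log2 CPM ran most like the mean of the 10 astrocyte genes over the 12 libraries were Yap1, a transcriptional coactivator (Pearson r = 0.93), Itsn1, an endocytic scaffold (0.93), and Sft2d2 (0.91). Gjb2, which encodes connexin 26, followed at 0.91, then Shc3 and Myo6 at 0.90 each and Suds3 and Suclg2 at 0.89 each. The genes most like Gfap were a different set: Mxra8 (0.92), the ribosomal protein genes Rpl26 (0.91), Rpl27a (0.89) and Rpl11 (0.89), the protease inhibitor Timp4 (0.89), Rps14 (0.88), the aldehyde dehydrogenase Aldh2 (0.88) and the transcript AC122453.1 (0.88). These are descriptions of 12 libraries that share groups, depth and scaling.

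Further astrocyte genes were examined in lists by role, and the calls fell in the averaged exposure effect, where 2.12% of all genes passed as higher and 3.87% as lower. Of 30 further astrocyte markers, 4 were higher after valproic acid and 0 lower, and 26 were positive with a median of 0.11. Slc7a10, Slc25a18 and Atp1b2 were among those that passed. In knockout 26 of the 30 were positive with a median of 0.15 and in wildtype 23 with a median of 0.09, with 0 passing in either. At an unadjusted p under 0.05 there were 12 in knockout, where 14.9% of all genes were, and 4 in wildtype, where 14.2% were. Between the genotypes 22 of 30 were positive after exposure, with a median of 0.07, and 13 without it, with a median of -0.01. In either 0 passed, and 1 and 0 had an unadjusted p under 0.05, against 7.44% and 3.13% of all genes.

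Slc7a10, a transporter of small neutral amino acids, had a lowest, median and highest value of 36.3, 45.9 and 46.6 CPM in the 6 exposed libraries. In the 6 unexposed libraries these were 30.5, 35.4 and 38.2 CPM, and 5 of 6 exposed libraries were above all unexposed ones. The log2 difference was 0.31 (edgeR adjusted p = 0.00682). Slc25a18, a mitochondrial glutamate carrier, had 101, 114 and 121 CPM in exposed and 82.9, 97.5 and 108 CPM in unexposed libraries, again with 5 of 6 above (log2 0.23, edgeR adjusted p = 0.0117). Atp1b2, a glial subunit of the sodium pump, had 409, 426 and 484 CPM in exposed and 359.6, 369.5 and 402 CPM in unexposed libraries, with no overlap (log2 0.22, edgeR adjusted p = 0.0199).

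Of 19 genes of glutamate, potassium and water handling, 4 were higher and 0 lower after exposure, with a median of 0.04. Slc38a3, which exports glutamine to neurons, had a log2 difference of 0.22 (edgeR adjusted p = 0.0164), and 5 of 6 exposed libraries were above all unexposed ones. Slc1a4, a neutral amino acid exchanger, differed by 0.20 (edgeR adjusted p = 0.0203) with no overlap between 53.6 to 59.4 CPM in exposed and 46.7 to 52.9 CPM in unexposed libraries. Kcnj16, an inward rectifier potassium channel subunit, differed by 0.30 (edgeR adjusted p = 0.0335), with 36.9 to 51.9 CPM in exposed and 29.1 to 38.7 CPM in unexposed libraries.

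Of 15 genes of lipid and cholesterol supply, 2 were higher and 0 lower in the averaged effect, and 13 were positive with a median of 0.10. Dhcr7, which makes the last step of cholesterol synthesis, differed by 0.24 with no overlap (edgeR adjusted p = 0.0179).

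Of 18 transcription factors of astrocytes, Nfix was higher in the averaged effect (log2 0.20, edgeR adjusted p = 0.0287), and Bhlhe40 was higher after exposure in wildtype (log2 0.40, edgeR adjusted p = 0.0391), where 0.206% of all genes passed as higher. Bhlhe40 had 93.4, 95.4 and 72.5 CPM in exposed wildtype and 67.9, 65.1 and 65.1 CPM in unexposed wildtype, and leaving out any of these libraries but exposed wildtype replicate 3 ended its call (edgeR adjusted p = 0.0662 to 0.22). Of 17 tested genes of calcium and transmitter signalling, the GABA receptor subunit Gabbr2 was higher (log2 0.18, edgeR adjusted p = 0.0457) and the glutamate receptor Grm5 lower (log2 -0.17, edgeR adjusted p = 0.0458). Neurons also express both. Of 10 tested genes of the pan-reactive state, only Aspg was higher (log2 0.53, edgeR adjusted p = 0.0179), at 4.62 to 6.38 CPM in exposed and 2.81 to 4.91 CPM in unexposed libraries. The other astrocyte lists had 0 calls in the 6 comparisons with edgeR. They were 12 genes of the A1 and 10 of the A2 reactive state, 20 of glycolysis and the lactate shuttle, and 14 secreted synapse factors. Their medians in the averaged effect were 0.07, -0.02, 0.01 and 0.08 in that order. An unadjusted p under 0.05 was found for 2, 1, 3 and 3 of their genes, against 21.8% of all genes.

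**Figure D4:**
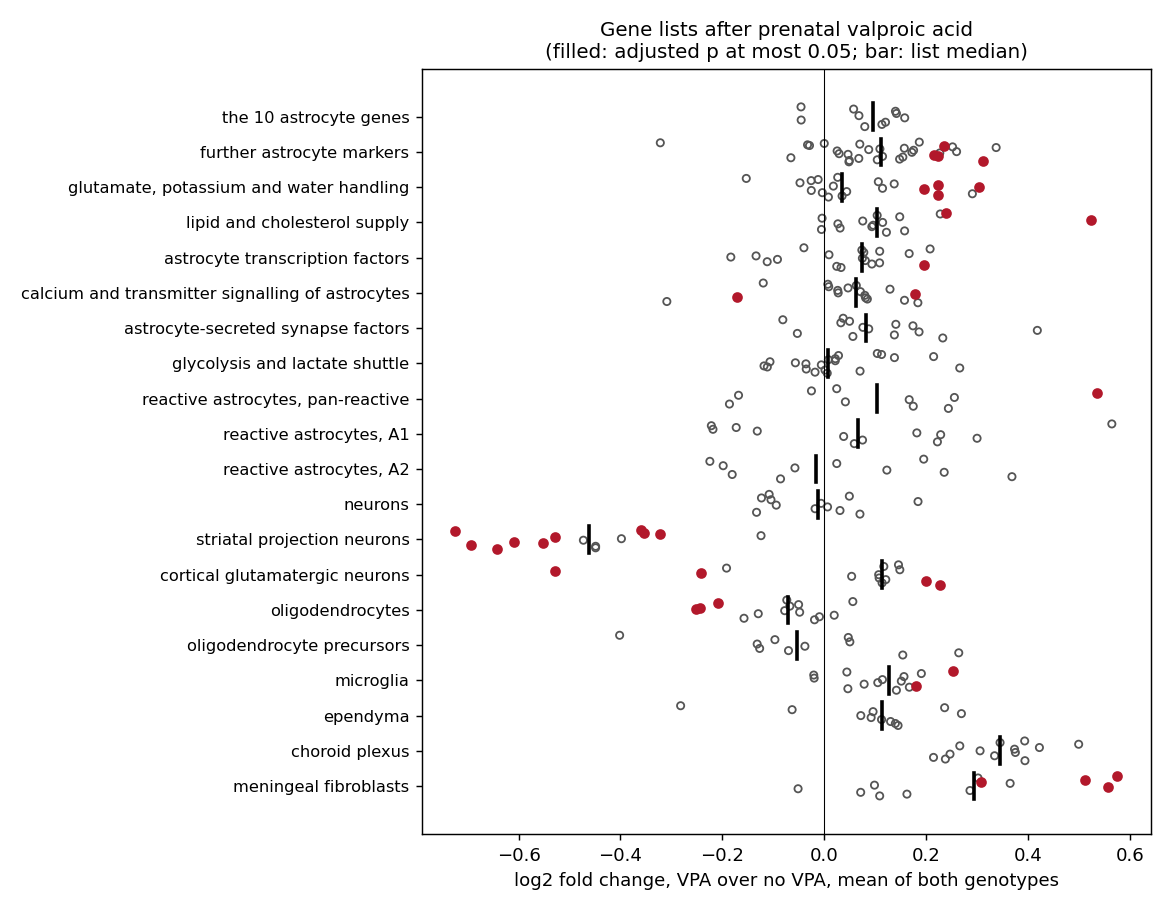
Log2 differences between exposed and unexposed libraries, averaged over genotypes, for the 10 astrocyte genes, the astrocyte lists and the lists of other cell types, one row per list, with a point per gene and a bar at the list median. Filled points passed the test (edgeR adjusted p at most 0.05), and none of the 10 astrocyte genes did.

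Most of these calls were lost when the libraries lacking Xist were accounted for. With a term for them 0 of 30 further markers, 0 of 19 handling genes and 1 of 15 lipid genes passed. Without both libraries the counts were 1, which was Slc7a10, 0 and 1, and without exposed knockout replicate 1 they were 2, 2 and 2. The medians were 0.11, 0.01 and 0.10 with the term and 0.08, 0.02 and 0.09 without exposed knockout replicate 1. In the main fit they were 0.11, 0.04 and 0.10, beside 0.01 over all genes. Whether these lists lost a larger share of their calls than all genes did was not tested. Calls over all genes in the averaged effect also changed with the setting. Against 1078 in the main fit, they ran from 172 to 1453 over the alternatives. With a single library left out they ran from 426 to 1193. Single libraries also mattered. All the astrocyte lists together had 13 calls in the averaged effect, each gene counted once. Of these, leaving out unexposed wildtype replicate 3 or unexposed knockout replicate 3 ended 9 each. Exposed knockout replicate 1 and exposed wildtype replicate 3 ended 6 each, and the others 0 to 5. The calls of Slc7a10 and Slc25a18 were ended by no single library. Those of Slc38a3 (exposed wildtype replicate 3, edgeR adjusted p = 0.0525), Dhcr7, Aspg, Atp1b2, Slc1a4, Nfix, Kcnj16, Grm5 and Gabbr2 were ended by 1 to 10, with an edgeR adjusted p of 0.0519 to 0.137.

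Markers of other cells moved beside these genes. In the averaged exposure effect 2.12% of all genes passed as higher and 3.87% as lower. Of 14 genes of striatal projection neurons 9 passed as lower and 0 as higher, with a median of -0.46. Their summed level was 1416 to 1859 CPM in exposed knockout, 1440 to 1591 in exposed wildtype, 1659 to 2569 in unexposed knockout and 2240 to 2300 in unexposed wildtype. Of 12 meningeal fibroblast genes 4 were higher, with a median of 0.29, and 3 of 14 oligodendrocyte genes were lower, with a median of -0.07. Of 14 microglial genes 12 were positive with a median of 0.13, and 2 passed as higher (7 at an unadjusted p under 0.05, where 21.8% of all genes were). Of 13 genes of cortical glutamatergic neurons 2 were higher and 2 lower, with a median of 0.11. Of 9 tested genes of mural cells 1 was lower, with a median of 0.20 and 6 positive. Of 12 endothelial genes 1 was lower, with a median of 0.04. All 13 choroid plexus genes were positive with a median of 0.35, and 0 passed (6 at an unadjusted p under 0.05, against 21.8% of all genes). Choroid plexus sums were 2698 to 3221 CPM in exposed knockout, against 1391 to 2617 in exposed wildtype, 1898 to 2060 in unexposed knockout and 1349 to 2096 in unexposed wildtype. All 13 were also positive for knockout after exposure, with a median of 0.74, and for exposure in knockout, with a median of 0.63. Of the 13, 12 had an unadjusted p under 0.05 in each, against 7.44% and 14.9% of all genes. In exposed wildtype against unexposed wildtype 5 of 13 were positive, with a median of -0.07. One choroid plexus gene, Cldn2, a tight junction claudin named here after its values were seen, was higher for knockout after exposure (log2 0.94, edgeR adjusted p = 0.0431). In that comparison 0.0389% of all genes passed as higher. Cldn2 had 11.8 to 12.9 CPM in exposed knockout and 4.46 to 8.36 CPM in exposed wildtype. Without exposed knockout replicate 1 no choroid plexus gene passed, at a median of 0.69. Meningeal fibroblast genes were positive in 12 of 12 for exposure in knockout, with a median of 0.42 and 1 passing as higher. There 0.0556% of all genes passed in either direction. For knockout after exposure 10 of 12 were positive, with a median of 0.15 and 0 passing.

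Ependymal cells share several astrocyte transcripts. Ependymal genes were positive in 11 of 11 for knockout after exposure, with a median of 0.30, and in 10 of 11 for exposure in knockout, with a median of 0.31. In these comparisons 0 passed, and 3 and 1 had an unadjusted p under 0.05, against 7.44% and 14.9% of all genes. Of the 4 pairwise comparisons, these are also the pair in which the Gfap difference and the choroid plexus median were highest. The summed level of the ependymal genes was 59.9 to 64.2 CPM in exposed knockout, 48.6 to 54.4 in exposed wildtype, 50.4 to 57.1 in unexposed knockout and 44.2 to 71.8 in unexposed wildtype. Neuronal genes were negative in 12 of 12 for knockout after exposure, with a median of -0.13, and 0 passed (2 at an unadjusted p under 0.05, against 7.44% of all genes). Genes of neural stem cells had medians of 0.09 for exposure in knockout and 0.0016 in wildtype, and those of olfactory ensheathing glia -0.08 and -0.07. None of the genes in these lists was at 0 in all libraries. The part of other cell types, or of unequal dissection, in the astrocyte values was not tested.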

How the data were processed

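RNA was sequenced from 12 mouse brain libraries. Per the labels, ribosomal RNA was depleted before library construction, and the submitters' processing notes name HISAT2 and the build GRCm39 without versions; no source used here names the counting program, the annotation or the strand setting. The authors deposited raw counts per Ensembl gene for 56748 genes, of which 22955 had no count, and no other unit. Symbols, chromosomes and exon lengths came from an annotation on GRCm38 (52125 identifiers, 99.5% of counts), so gene positions are not printed.

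Genes were filtered with edgeR's filterByExpr, which left 17995, and scaled by TMM. One fit with 4 group means took in all 12 libraries (edgeR, quasi-likelihood with robust dispersion), and contrasts were tested two-sidedly with Benjamini-Hochberg adjustment at 0.05. Log2 CPM used a prior count of 2. SE and 95% confidence intervals come from the same fit. Tools were edgeR 4.0.16 and DESeq2 1.42.0 in R 4.3.3, and pandas 2.3.3, numpy 2.4.6, matplotlib 3.10.9 and scipy 1.17.1 in Python 3.11.15. The fit was tested on simulated data.

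The 10 genes, the lists and the comparisons were chosen with earlier results of these data known. The 10 genes were always named, as were at most 6 called genes of each list, and the 8 genes most like the 10 or like Gfap. Notch receptor genes and Rbpj were added, and genes of other cell types are given by list. Some called genes of the astrocyte lists are counted there but not reported here. A library with under 100 Xist counts was taken to lack it. Alternatives were size factors of DESeq2, 2 other count filters, DESeq2's Wald test, a fit of only the libraries compared, mitochondrial genes left out, the replicate number as a block, a term for libraries lacking Xist, both of these left out, and each library left out in turn.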

Additional observations from a re-analysis of the deposited data

How the results depend on the processing

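None of the 10 genes passed the test in any of 1000 values over the alternatives, where the smallest edgeR adjusted p was 0.052 (Gfap, knockout after exposure, without exposed wildtype replicate 3). The median over the 10 genes moved by more than the spread between libraries in 2 settings. Without both libraries lacking Xist it was 0.14 for knockout after exposure and 0.13 for the interaction. With each library left out it ran from -0.0031 to 0.15 for exposure in knockout, from -0.062 to 0.10 for knockout after exposure and from -0.10 to 0.082 for the interaction, lowest each time without exposed knockout replicate 1. It ran from 0.035 to 0.11 for exposure in wildtype and from -0.035 to 0.066 for knockout without exposure. The cause was not tested. Same-numbered libraries did not pair (1 of 18 pairs with r over 0.1, and 3 of 12 libraries closest to their own number). With the replicate block the medians were 0.09 for exposure in knockout and 0.08 in wildtype, and 0 of the 10 genes passed, while 6 of all genes passed for exposure in knockout, against 10 without the block.

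In 44 values over 22 pairs of gene and comparison the sign turned, all from log2 differences of 0.11 or less in size, with none past the test. Without both libraries lacking Xist the values were 0.023 for Aqp4, 0.11 for Slc1a2 and 0.074 for Gja1 for knockout after exposure, 0.016 for Aqp4 and 0.034 for Slc1a2 in the interaction, -0.0080 for Aldh1l1 for exposure in wildtype and 0.080 for S100b for exposure in knockout. With a term for these libraries S100b was 0.0031 for exposure in knockout. Slc1a3 for knockout after exposure was -0.0020 with DESeq2's size factors, -0.0020 with its Wald test and -0.0088 with no count filter.

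With each library left out, the ranges for exposure in knockout were -0.015 to 0.10 for Gja1, -0.15 to 0.092 for S100b, -0.033 to 0.19 for Slc1a2, -0.073 to 0.097 for Slc1a3, -0.019 to 0.14 for Sox9 and 0.12 to 0.27 for Aldh1l1. For exposure in wildtype they were -0.0080 to 0.085 for Aldh1l1 and -0.061 to 0.015 for Aldoc. For knockout after exposure they were -0.13 to 0.045 for Gja1, -0.016 to 0.15 for Glul, -0.037 to 0.20 for S100b, -0.16 to 0.063 for Slc1a2, -0.086 to 0.048 for Slc1a3 and -0.15 to 0.033 for Sox9. For knockout without exposure they were -0.093 to 0.060 for Aldh1l1, -0.081 to 0.049 for Aldoc, -0.050 to 0.062 for Aqp4 and -0.071 to 0.11 for S100b. In the interaction they were -0.13 to 0.0028 for Aqp4 and -0.075 to 0.17 for S100b, and in the averaged effect -0.11 to 0.0069 for S100b.

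Calls over all genes depended on the setting. Against 10 for exposure in knockout they ran from 2 to 391, against 161 in wildtype from 14 to 512, and against 1078 in the averaged effect from 172 to 1453. Against 9 for knockout after exposure they ran from 7 to 86, against 7 without exposure from 6 to 15, and against 0 for the interaction from 0 to 5. The lowest count behind any of the 10 genes was 461 in a library, for Sox9.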
